A study of Mus musculus with 30 samples.

Results

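The DNA replication and mitosis genes described here are 42 listed genes of the cell division cycle. Their RNA was measured with Illumina BeadChip arrays in embryonic stem (ES) cells of the mouse. Of the 42 genes, 20 act in S phase, when DNA is copied, and 22 act in G2 and mitosis, when the copied chromosomes are condensed and separated. All probes whose symbol in the platform annotation was one of the 42 were taken. They numbered 60, for 38 genes, 19 in each phase. No probe was annotated to Mcm3, Ccnb1, Kif20a or Cenpf. A filter on dim probes left 50 probes and 32 genes tested, 17 of S phase and 15 of G2 and mitosis, out of 9809 genes tested in all. Gins2, Pola1, Ccnb2, Bub1, Kif11 and Cenpe had probes that did not pass. All 32 genes tested lay above the arrays' background limit in 28 of 28 samples.

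The 28 samples fell into 7 groups of 4, numbered 1 to 4, all of the male Ainv15 ES cell line and all treated for 6 hours. The line carries a transgene at a defined locus under a promoter that doxycycline turns on. The labels do not name the transgene, which as known of the study is the intracellular domain of Notch1, the active form of the receptor. The groups were ES cell medium with serum and LIF (ESC), the serum-free medium N2B27 (N2B27), N2B27 with 2 ug/ml doxycycline (Dox), N2B27 with 2.5 ng/ml of the gamma-secretase inhibitor DAPT (DAPT), and N2B27, N2B27 with doxycycline and N2B27 with DAPT under 1% oxygen (1% O2, 1% O2+Dox and 1% O2+DAPT). DAPT cultures also had 4 hours of DAPT in ES cell medium beforehand, and the labels do not say how the controls were kept in that time. No cells without the transgene received doxycycline, so an effect of the drug cannot be told apart from one of the transgene. N2B27, as the labels give it, holds neither serum nor LIF and also differs from ES cell medium in its base and supplements, so the parts of the medium cannot be told apart. The samples are a single line, and the labels do not say whether replicates came from separate cultures, so p-values measure the spread between these samples, which may be technical.

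Before DNA is copied, Cdc6 and Cdt1 load the ring of Mcm2 to Mcm7 onto replication origins, and Cdc45, Mcm10 and the kinase activity of cyclin E help to turn that ring into an active helicase. The transcription factors of the E2F family switch on many of these genes at the end of G1. Genes of G2 and mitosis come on later in the cycle, and many carry CCAAT boxes and a cell cycle homology region (CHR) in their promoters. The CHR is where complexes that repress them outside G2 are known to act. ES cells have a short G1 and spend most of their cycle in S phase, and their cyclin E kinase activity is high throughout. In bulk RNA, fewer cells in a phase and less RNA per cell cannot be told apart.

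Promoter windows of 250 bases before the annotated start of transcription (RefSeq, build GRCm38.p6) were available for 35 of the 42 genes, 17 of S phase and 18 of G2 and mitosis. Each window was searched on both strands for the E2F sequences TTTCCCGC, TTTCGCGC, TTTGCCGC and TTTGGCGC, for the CHR sequences TTTGAA and TTCGAA, and for the CCAAT box. None of the sequences searched contains another, and TTCGAA reads the same on both strands. The windows of 5 genes are shown in the direction of transcription because they stand for the patterns found and belong to genes whose values are described below. Capitals mark matches, and a match on the opposite strand appears as its complement, so that a CCAAT box there reads ATTGG.
Mcm7 (chr5:138171884-138172133, minus strand): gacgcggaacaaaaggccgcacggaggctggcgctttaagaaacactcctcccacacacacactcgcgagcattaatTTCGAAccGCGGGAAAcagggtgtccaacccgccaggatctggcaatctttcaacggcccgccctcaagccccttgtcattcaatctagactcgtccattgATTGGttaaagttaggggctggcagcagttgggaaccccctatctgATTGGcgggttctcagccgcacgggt
Pcna (chr2:132253181-132253430, minus strand): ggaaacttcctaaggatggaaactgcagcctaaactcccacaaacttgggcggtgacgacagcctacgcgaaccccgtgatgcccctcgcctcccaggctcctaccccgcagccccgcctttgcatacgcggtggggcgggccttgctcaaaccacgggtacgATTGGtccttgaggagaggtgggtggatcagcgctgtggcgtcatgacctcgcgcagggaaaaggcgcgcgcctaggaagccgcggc
Plk1 (chr7:122159185-122159434, plus strand): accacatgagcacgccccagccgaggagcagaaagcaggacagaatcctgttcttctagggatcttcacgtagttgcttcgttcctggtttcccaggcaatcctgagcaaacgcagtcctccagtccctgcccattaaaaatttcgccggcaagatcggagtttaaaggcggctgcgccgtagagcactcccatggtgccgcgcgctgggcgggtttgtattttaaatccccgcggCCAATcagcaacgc
Cdc20 (chr4:118437344-118437593, minus strand): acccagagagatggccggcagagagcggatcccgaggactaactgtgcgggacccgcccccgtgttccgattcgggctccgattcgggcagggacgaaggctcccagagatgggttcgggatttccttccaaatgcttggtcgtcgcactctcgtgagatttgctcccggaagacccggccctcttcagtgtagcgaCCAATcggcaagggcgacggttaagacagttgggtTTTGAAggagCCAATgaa
Kif23 (chr9:61946800-61947049, minus strand): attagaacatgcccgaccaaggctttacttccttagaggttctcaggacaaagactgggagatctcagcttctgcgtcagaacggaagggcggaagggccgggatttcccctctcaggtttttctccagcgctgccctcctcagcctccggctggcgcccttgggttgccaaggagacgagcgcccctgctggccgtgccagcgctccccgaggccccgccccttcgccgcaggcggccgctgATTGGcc

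The window of Mcm7, a helicase subunit, holds all 3 kinds of match. That of Cdc20, which activates the anaphase-promoting complex, holds a CHR match between a pair of CCAAT boxes close to the start site. Those of Pcna (the sliding clamp of DNA polymerase), Plk1 (a kinase of mitotic entry) and Kif23 (a motor of the central spindle) hold 1 CCAAT box each. Among S phase genes an E2F match was found in 5 of 17 windows (29.4%), and among G2 and mitosis genes in 2 of 18 (11.1%), against 1.91% of 27025 promoters of all genes and 3.4% of the 7950 of genes tested. The CHR sequences were in 3 of 17 S phase windows (17.6%) and 7 of 18 G2 and mitosis windows (38.9%), against 17.4% of all promoters and 12.5% of those of genes tested. The CCAAT box was in 11 of 17 (64.7%) and 14 of 18 (77.8%), against 34.5% and 36.5%. The windows of Ccne1 and Nusap1 hold none of the 3. The window of E2f1, which is counted among the 17, holds none either, but its letters look like coding sequence and the start listed for it may not be its main one, so nothing is read from it. The core of the binding sequence of hypoxia-inducible factors, ACGTG or GCGTG, was in 10 of 17 S phase windows (58.8%) and 13 of 18 G2 and mitosis windows (72.2%), against 38.6% of all promoters and 55.7% of those of genes tested. A match describes these letters and is no evidence of binding.

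Known target genes moved with doxycycline and with 1% oxygen in these samples. Doxycycline raised Nrarp, a feedback inhibitor of Notch, by 3.45 ± 0.29 (log2 fold change ± standard error, SE, here and below), and 1% oxygen raised Adm, a target of hypoxia-inducible factors, by 4.60 ± 0.22, while DAPT called none of the 9809 genes (limma, Benjamini-Hochberg adjusted p, called under 0.05). None of 8 listed target genes of Notch or hypoxia was called for DAPT at either oxygen level, so an action of DAPT is not shown. All 11 ES cell marker genes with a probe were above background in every sample, and their summed signal was 34700 to 41900 across the samples. Averaged over the backgrounds described below, 1 of the 11 rose under 1% oxygen, against 7.76% of all genes. With samples matched by number (a replicate block, described below) 5 rose and 2 fell, against 17% and 24.5% of all genes. Of the fibroblast markers, 2 of 9 (Thy1 and Pdgfrb) were above background in every sample and Postn, Lum and Fap in none, with sums of 949 to 1480 in ESC and 759 to 1120 in N2B27. With the block 2 of 5 tested, Thy1 and Dcn, were lower in N2B27, against 7.69% of all genes, and without it 0. Of the endoderm, mesoderm and trophectoderm markers, 6 of 10 were above background in every sample and Foxa2, Afp, Mixl1 and Hand1 in none. Their sums were 2180 to 4870 in the 3 N2B27 groups at ambient oxygen and 2450 to 6230 under 1% oxygen, and 3 of 6 tested rose under 1% oxygen, against 7.76% of all genes, or 4 with the block, against 17%. Of the neural markers Tubb3 alone, 1 of 6, was above background in every sample and Sox1 and Pax6 in none, with sums of 376 to 430 in N2B27 and 509 to 603 in Dox. With the block 1 of 3 tested, Nes, rose with doxycycline, in a comparison that called 1.73% of all genes, and without it 0. The part of these markers in the results below was not tested.

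For many members the largest difference was not between treatments but between replicates 1 and 2 and replicates 3 and 4 of every group. Kif15, a spindle motor, had a mean log2 intensity of 6.97 in the 14 samples numbered 1 or 2 and 8.82 in those numbered 3 or 4, a difference of -1.85. Pcna differed by -1.40 (means of 10.51 and 11.91), Ccna2 (cyclin A2) by -1.23 and Ttk (a spindle checkpoint kinase) by -1.13. In the opposite direction, Ccne2 (cyclin E2) was higher in replicates 1 and 2 by 0.87 and Cdc25c, the phosphatase that activates Cdk1, by 0.67. Both phases moved both ways: 9 of 17 S phase genes were higher in replicates 1 and 2 and 8 lower (median 0.036), and 8 of 15 G2 and mitosis genes higher and 7 lower (median 0.011), against a median of 0.010 over all genes. In a limma fit of group and replicate set, 8 S phase genes were called higher in replicates 1 and 2 and 5 lower. For G2 and mitosis genes these counts were 5 and 7. Of all 9809 genes 3535 were called higher and 3350 lower, so the split was not particular to the members. For 17 of the 32 members this difference was larger in size than every one of the 8 treatment differences. That share was not counted over all genes. Over the 28 samples the log2 intensity of a member spanned from 0.29 (Mcm5) and 0.30 (Mcm4) to 1.99 (Pcna) and 2.31 (Kif15).

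**Figure D1:**
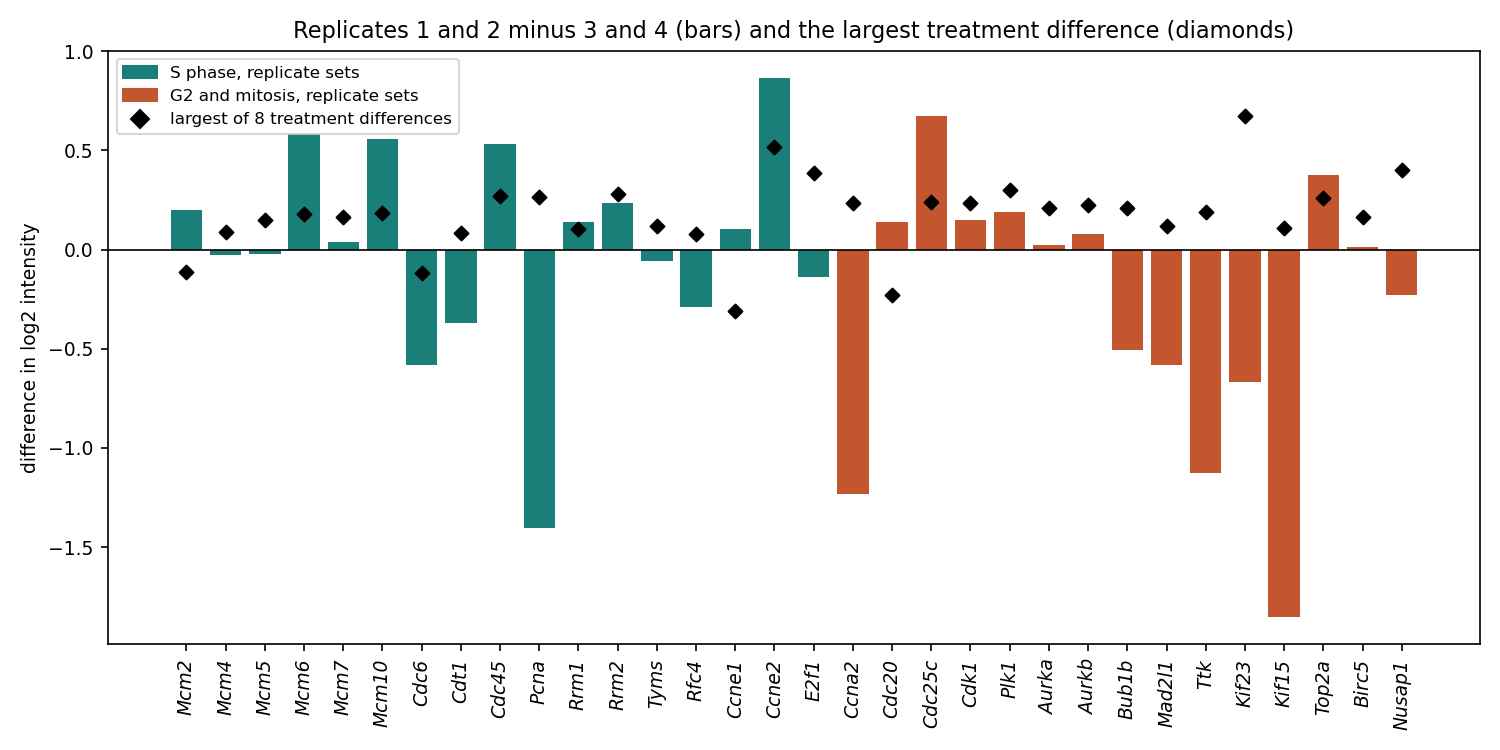
Bars give, for each of the 32 members, the mean log2 intensity of replicates 1 and 2 less that of replicates 3 and 4 (14 samples each), coloured by phase. Diamonds give the treatment difference of largest size among 8 comparisons. The bars of Kif15 (-1.85), Pcna (-1.40), Ccna2 (-1.23) and Ttk (-1.13) reach far beyond their diamonds, and those of Nusap1, E2f1 and Kif23 do not.

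Because samples with the same number moved together, each comparison was also fitted with the replicate number as a block, and the blocked result is given wherever it changed the call of a member. The median SE of a member was 0.13 without the block and 0.068 with it. The origin of the sets of replicates is not in the labels.

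Between ES cell medium and N2B27 the G2 and mitosis genes among the members had, by their median, a larger difference than the S phase genes. All 15 G2 and mitosis genes tested had higher means in N2B27, with a median of 0.209. The median was 0.074 for S phase genes (14 of 17 positive) and 0.009 for all genes (5125 of 9809 positive). The medians of the phases differed by 0.135 (0.126, 0.117, 0.114 and 0.048 in pairs 1 to 4, SD 0.036, n = 4). That difference was 0.020 without N2B27 replicate 3, 0.055 without ESC replicate 1 and 0.082 without ESC replicate 2, and it was 0.14 within replicates 1 and 2 and 0.097 within replicates 3 and 4. In the blocked fit, in which an omission leaves the other 3 pairs matched, it stayed between 0.082 and 0.150 over 8 omissions. Among other genes of these processes, counted below, the medians lay closer together, at 0.127 for mitosis and 0.090 for replication. With the block 8 of 39 of those mitosis genes and 13 of 40 of those replication genes rose, against 8.37% of all genes.

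Without the block no member was called, against 1.94% of all genes. An unadjusted p under 0.05 was found for 10 of 32 members, against 1088 of all 9809 genes. With the block 12 were called, against 16.1% of all genes. Of these 11 rose, against 8.37% of all genes, and 1 fell, against 7.69%. Those that rose were 8 of the 15 G2 and mitosis genes (Nusap1, Plk1, Top2a, Cdc25c, Cdk1, Bub1b, Aurka and Birc5) and 3 of the 17 S phase genes (Rrm2, Mcm6 and Mcm7). The gene that fell was Ccne1 of S phase.

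Nusap1, whose protein bundles spindle microtubules, measured 11.47, 11.35, 11.56 and 11.70 in ESC replicates 1 to 4 and 11.78, 11.77, 11.94 and 12.21 in N2B27. The groups did not overlap, which held in this direction for 4.13% of all genes. The difference was 0.40 ± 0.11 (adjusted p = 0.0667; SE 0.056 and adjusted p = 2.47e-05 with the block, limma), a fold of 1.32, and a dimmer second probe gave 0.15. Plk1 measured 12.88, 12.73, 12.47 and 12.59 in ESC and 13.15, 12.98, 12.81 and 12.93 in N2B27. The groups overlapped, yet each N2B27 sample was above the ESC sample of its number, by 0.25 to 0.34. The difference was 0.30 ± 0.11 (adjusted p = 0.192; 0.000167 with the block).

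The Aurora kinases act on the spindle poles (Aurka) and on chromosomes and the midzone (Aurkb). Aurka measured 11.91, 11.99, 11.89 and 11.97 in ESC and 12.09, 12.28, 12.07 and 12.14 in N2B27, with no overlap, and rose with the block by 0.21 ± 0.05 (adjusted p = 0.00435). Aurkb had a like difference of 0.22 that was not called (adjusted p = 0.0730 with the block), with pairs from 0.06 to 0.51. Birc5, or survivin, a partner of Aurkb, measured 12.38, 12.40, 12.39 and 12.46 in ESC and 12.52, 12.58, 12.62 and 12.59 in N2B27. It was the third member without overlap, at 0.17 (adjusted p = 0.0350 with the block), and its other probes gave 0.17 and 0.21. None of the 17 S phase genes had groups without overlap, against 6.92% of all genes in either direction.

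Cdk1, the kinase that drives cells into mitosis, measured 11.50, 11.51, 11.36 and 11.40 in ESC and 11.75, 11.77, 11.45 and 11.70 in N2B27, and rose with the block by 0.22 (adjusted p = 0.00492). Its level in N2B27 replicate 3 lay within the ESC range. Top2a, which untangles sister chromatids, rose by 0.26 with the block (adjusted p = 0.0109), and the checkpoint gene Bub1b by 0.21 (adjusted p = 0.0333). Cdc25c rose by 0.24 with the block (adjusted p = 0.0272), but its other probes gave 0.09 and -0.08. The checkpoint genes Mad2l1 and Ttk, at 0.01 and 0.03, and the motor Kif15, at 0.11, were not called. Counted by pairs, 10 of 15 G2 and mitosis genes were higher in all 4 pairs, against 5 of 17 S phase genes and 18.9% of all genes.

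Among S phase genes the rises were in Rrm2, the small subunit of ribonucleotide reductase, and in helicase subunits. Rrm2 rose by 0.28 with the block (adjusted p = 0.0185), while its dimmer second probe gave -0.06. Mcm6 rose by 0.18 with the block (adjusted p = 0.0350), with other probes at 0.13 and -0.30, and Mcm7 by 0.16 (adjusted p = 0.0478), with a second probe at 0.14. Ccne1, cyclin E1, went the opposite way. It measured 12.41, 12.48, 12.41 and 12.20 in ESC and 12.14, 12.15, 12.27 and 11.82 in N2B27, and it fell by 0.28 with the block (adjusted p = 0.00797), lower in 4 of 4 pairs. The other cyclin E gene, Ccne2, had a difference of -0.06 that was not called, and it too was lower in 4 of 4 pairs, as were 16.7% of all genes.

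Leaving out 1 of the 8 samples brought the blocked calls to between 6 and 11. Nusap1, Plk1, Aurka, Cdk1 and Ccne1 were called in 8 of 8 omissions, Top2a in 6, Rrm2 in 5, Bub1b and Birc5 in 3, Mcm7 and Cdc25c in 2 and Mcm6 in 1. The count was 7 without ESC replicate 2, 3 or 4 and 6 without N2B27 replicate 2. With arrays scaled to a common median in place of quantile normalization, the blocked calls were Nusap1, Plk1, Cdc25c and Cdk1, higher, and Ccne1, lower.

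**Figure D2:**
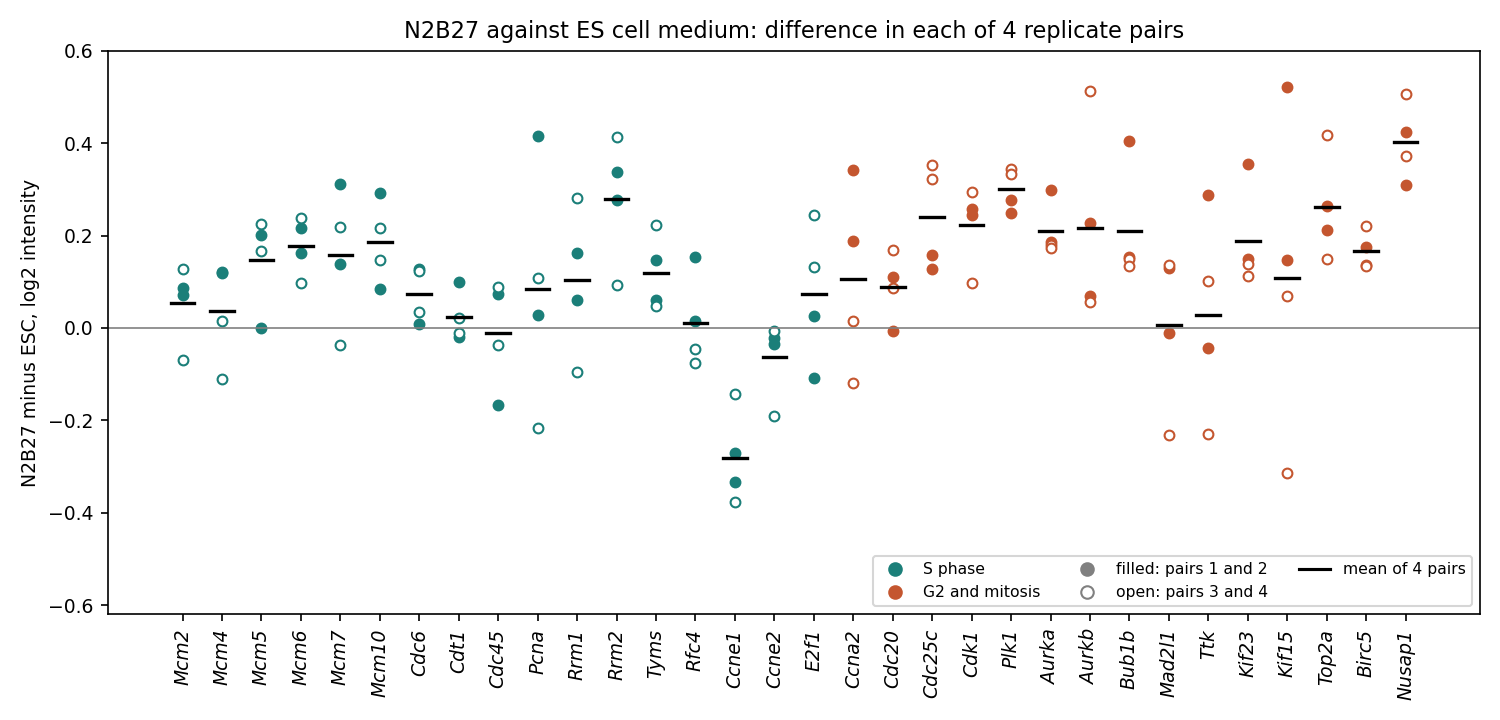
Each point is the difference in log2 intensity between the N2B27 and ESC samples of 1 number, for the 32 members, with S phase genes at the left. Filled points are pairs 1 and 2, open points pairs 3 and 4, and bars the mean. All 4 points of Nusap1, Plk1, Aurka and Birc5 lie above 0 and all 4 of Ccne1 below, while those of Pcna, Ttk and Kif15 lie on both sides.

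No member was called for doxycycline or for DAPT at either oxygen level. For doxycycline at ambient oxygen the differences ran from -0.15 (Bub1b) to 0.12 (Mcm10), and no member was called with or without the block, against 0.336% of all genes without it and 1.73% with it. At an unadjusted p under 0.05 there were 0 members without the block and 2 with it, against 228 and 859 of all 9809 genes. Under 1% oxygen the differences ran from -0.05 (Mcm5) to 0.23 (Aurkb), with no call against 0.194% and 1.46%. There 1 member had an unadjusted p under 0.05 in either fit, against 241 of all genes without the block and 993 with it. For DAPT the range was -0.12 (Mcm2) to 0.20 (Ccne2) at ambient oxygen and -0.09 (Cdc20) to 0.25 (Pcna) under 1% oxygen, in comparisons that called 0% of all genes in either fit. With the block, 1 member in each of these had an unadjusted p under 0.05, against 560 and 594 of all genes. Without the block 0 members did, against 82 and 105 of all genes.

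In the blocked fit these data bound the size of such effects, under the treatments as given. With the block, the 95% interval of the difference lay within 0.5 of 0 on the log2 scale for 32 of 32 members in each of the 4 comparisons, and its farthest bound was 0.36 for doxycycline (Ttk) and 0.41 for DAPT (Ccne2) at ambient oxygen. Under 1% oxygen the farthest bounds were 0.43 and 0.48, both for Pcna. Without the block the intervals were wider. The median of the members' farthest bounds was then 0.32 for doxycycline and 0.30 for DAPT at ambient oxygen, and 0.35 and 0.33 under 1% oxygen. With the block these medians were 0.19 for doxycycline and 0.18 for DAPT at both oxygen levels. G2 and mitosis less S phase medians were -0.034 (SD over pairs 0.044) for doxycycline and -0.011 (0.043) for DAPT at ambient oxygen, and -0.004 (0.041) and 0.018 (0.029) under 1% oxygen. Each was smaller than its SD over pairs, which measures the spread of single pairs and not the error of a summary of them. For DAPT under 1% oxygen the 4 pairs were all positive (0.033, 0.078, 0.009 and 0.042), while the difference ran from -0.028 to 0.077 over omissions of a sample. Aurkb was the 1 member whose doxycycline groups did not overlap under 1% oxygen, as 0.612% of all genes did upward. It measured 10.54, 10.67, 10.56 and 10.54 in 1% O2 and 10.67, 10.92, 10.82 and 10.81 in 1% O2+Dox, with an adjusted p of 0.262 in the blocked fit. The groups all but touched, with a highest value of 10.666 in 1% O2 and a lowest of 10.667 in 1% O2+Dox. No member was called for a doxycycline effect or a DAPT effect that differed between oxygen levels, against 0.0102% and 0% of all genes (0.0204% and 0% with the block). None had an unadjusted p under 0.05 in either fit, against 57 and 58 of all genes without the block and 398 and 418 with it.

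**Figure D3:**
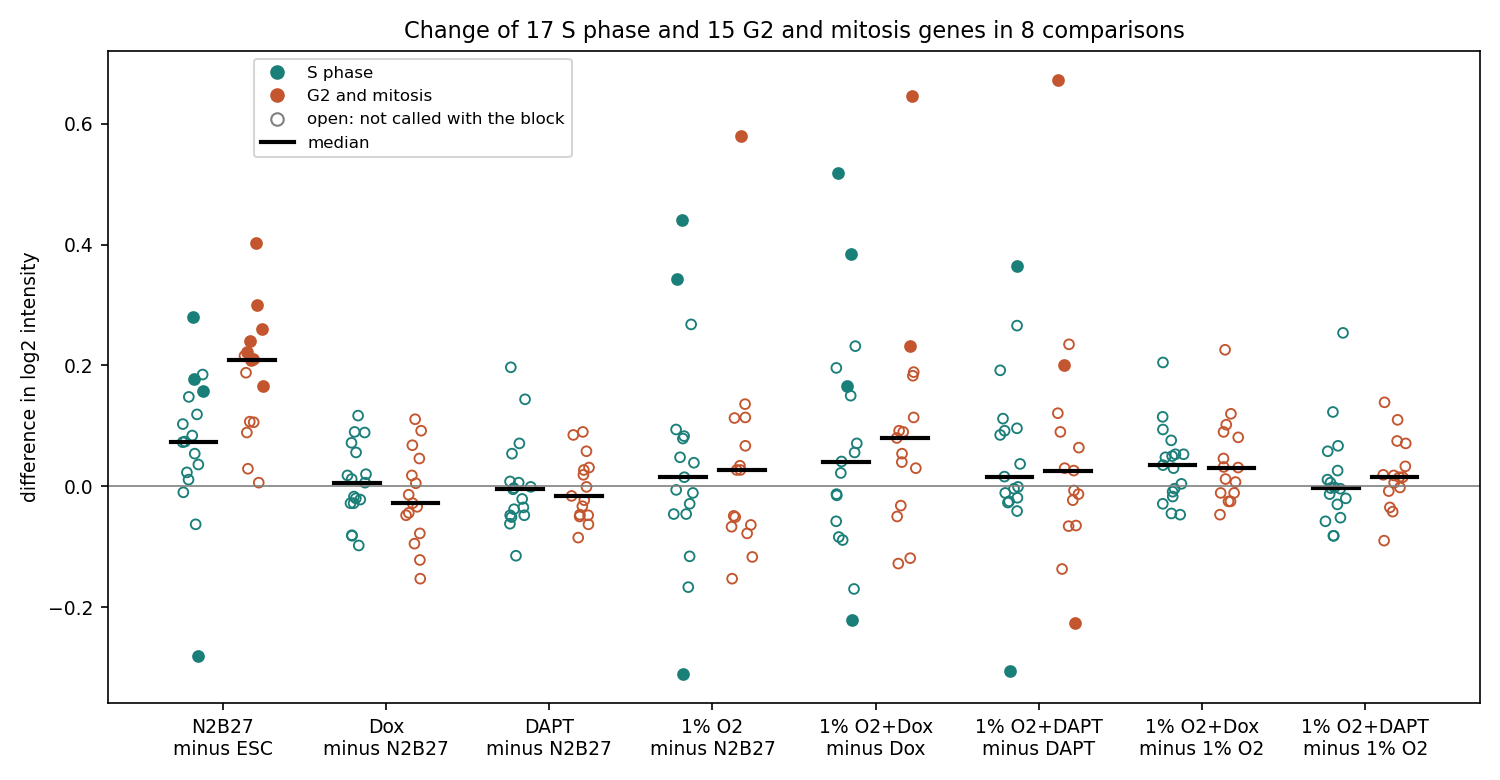
Each point is 1 of 17 S phase or 15 G2 and mitosis genes, at its difference in log2 intensity in 1 of 8 comparisons. Filled points were called with the replicate block and bars are medians. The genes of the phases overlap in every comparison. Their medians are farthest apart for N2B27 minus ESC (0.074 and 0.209), where most filled points are G2 and mitosis genes above 0, and the doxycycline and DAPT columns hold no filled point.

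Low oxygen changed a few members, in both phases and in both directions. Averaged over N2B27, doxycycline and DAPT, 1% oxygen called 5 of 32 members, against 17.6% of all genes: E2f1, Kif23 and Mcm7 rose (7.76% of all genes did) and Ccne1 and Cdc20 fell (9.83%). With the block 12 were called, against 41.5% of all genes, 9 higher (17% of all) and 3 lower (24.5%). Both counts lie close to the share over all genes. The medians of the phases were the same, 0.013 for S phase (11 of 17 positive) and 0.013 for G2 and mitosis (11 of 15 positive). For all genes the median was -0.022 (4315 of 9809 positive). The difference of the phases was 0 (SD over pairs 0.042), between -0.027 and 0.040 over 24 omissions of a sample. With median scaling the phase medians were -0.057 and -0.075, against -0.066 for all genes, so the sign of a small change depends on the scaling.

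Kif23, which builds the central spindle for cytokinesis, had the largest log2 fold change of any member here. In replicates 1 and 2 it measured 11.46 to 11.77 at ambient oxygen (median 11.57) and 12.19 to 12.37 under 1% oxygen (median 12.28), 6 samples each. In replicates 3 and 4 it measured 12.12 to 12.48 (median 12.30) and 12.68 to 12.97 (median 12.89). Within each set of replicates the oxygen levels did not overlap, and it was the 1 member of which that held, in this direction for 2.81% of all genes. Over all samples the levels overlapped, because its level in replicates 3 and 4 at ambient oxygen reached that of replicates 1 and 2 under 1% oxygen. Kif23 rose by 0.63 ± 0.16 (adjusted p = 0.00557; 4.78e-10 with the block), a fold of 1.55, and was higher in 12 of 12 pairs. Here and below the 12 pairs are the 4 numbers in each of 3 backgrounds. Samples with the same number are not independent, and pairs were not counted over all genes here. The rise was 0.70 within replicates 1 and 2 (adjusted p = 1.84e-05) and 0.57 within replicates 3 and 4 (adjusted p = 0.00273).

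E2f1, a transcription factor that switches on replication genes, measured 10.80 to 11.32 in the 12 ambient samples (median 11.10) and 11.31 to 11.62 in the 12 under 1% oxygen (median 11.45). N2B27 replicate 3 was the 1 ambient sample that reached the range of the samples under 1% oxygen. E2f1 rose by 0.36 ± 0.06 (adjusted p = 8.63e-05; 1.85e-07 with the block) and was higher in 12 of 12 pairs. The rise was 0.47 in replicates 1 and 2 (adjusted p = 9e-04) and 0.26 in replicates 3 and 4 (adjusted p = 0.0542).

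The cyclin E genes, partners of Cdk2 at the start of S phase, moved in opposite directions. Ccne1 measured 11.80 to 12.27 at ambient oxygen (median 12.13) and 11.70 to 11.94 under 1% oxygen (median 11.80), and it fell by 0.28 (SE 0.05, adjusted p = 0.000451; 7.86e-06 with the block), lower in 12 of 12 pairs. Its fall was 0.33 in replicates 1 and 2 (adjusted p = 0.00132), while the difference of -0.23 in replicates 3 and 4 was not called (adjusted p = 0.131). Ccne2 is dimmer and differs between the sets of replicates. In replicates 1 and 2 it measured 7.61 to 8.15 at ambient oxygen and 8.18 to 8.48 under 1% oxygen, and in replicates 3 and 4 it measured 6.68 to 7.27 and 7.12 to 7.52. With the block it rose by 0.38 (adjusted p = 1.36e-05; 0.238 without), higher in 11 of 12 pairs.

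Cdc20 and Mcm7 changed less. Cdc20 measured 12.66 to 13.10 at ambient oxygen (median 12.80) and 12.55 to 12.80 under 1% oxygen (median 12.66), and fell by 0.17 (adjusted p = 0.0181), lower in 11 of 12 pairs, with its other probes at -0.14 and -0.10. Mcm7 measured 12.48 to 12.72 (median 12.59) and 12.56 to 12.80 (median 12.71), and rose by 0.12 (adjusted p = 0.0259), with its second probe at 0.11. The call of Mcm7 was lost without N2B27 replicate 4 (adjusted p = 0.0522) or 1% O2 replicate 3 (adjusted p = 0.0509) and with median scaling (0.01, adjusted p = 0.923), and both calls were lost with the mean over a gene's probes (Cdc20 -0.14, adjusted p = 0.636; Mcm7 0.12, adjusted p = 0.766). Those of E2f1, Kif23, Ccne1 and Cdc20 held in 24 of 24 omissions.

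The other genes called with the block were Cdk1 (0.14, adjusted p = 0.000542), Ccna2 (0.18, adjusted p = 0.00539), Pcna (0.19, adjusted p = 0.0150), Cdc45 (0.18, adjusted p = 0.0292) and Top2a (0.11, adjusted p = 0.0338), which rose, and Birc5, which fell by 0.10 (adjusted p = 0.00887). Without the block these 6 had adjusted p from 0.0725 to 0.821. With median scaling and the block only Birc5 of the 6 was called, at -0.21, and the differences of Cdk1, Ccna2, Pcna, Cdc45 and Top2a were 0.05, 0.13, 0.10, 0.11 and 0.02. Members that were called under 1% oxygen include genes with and without the promoter matches shown above: the window of Ccne1 holds none, that of Kif23 a CCAAT box, and those of Cdc20 and Mcm7 a CHR and CCAAT boxes.

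**Figure D4:**
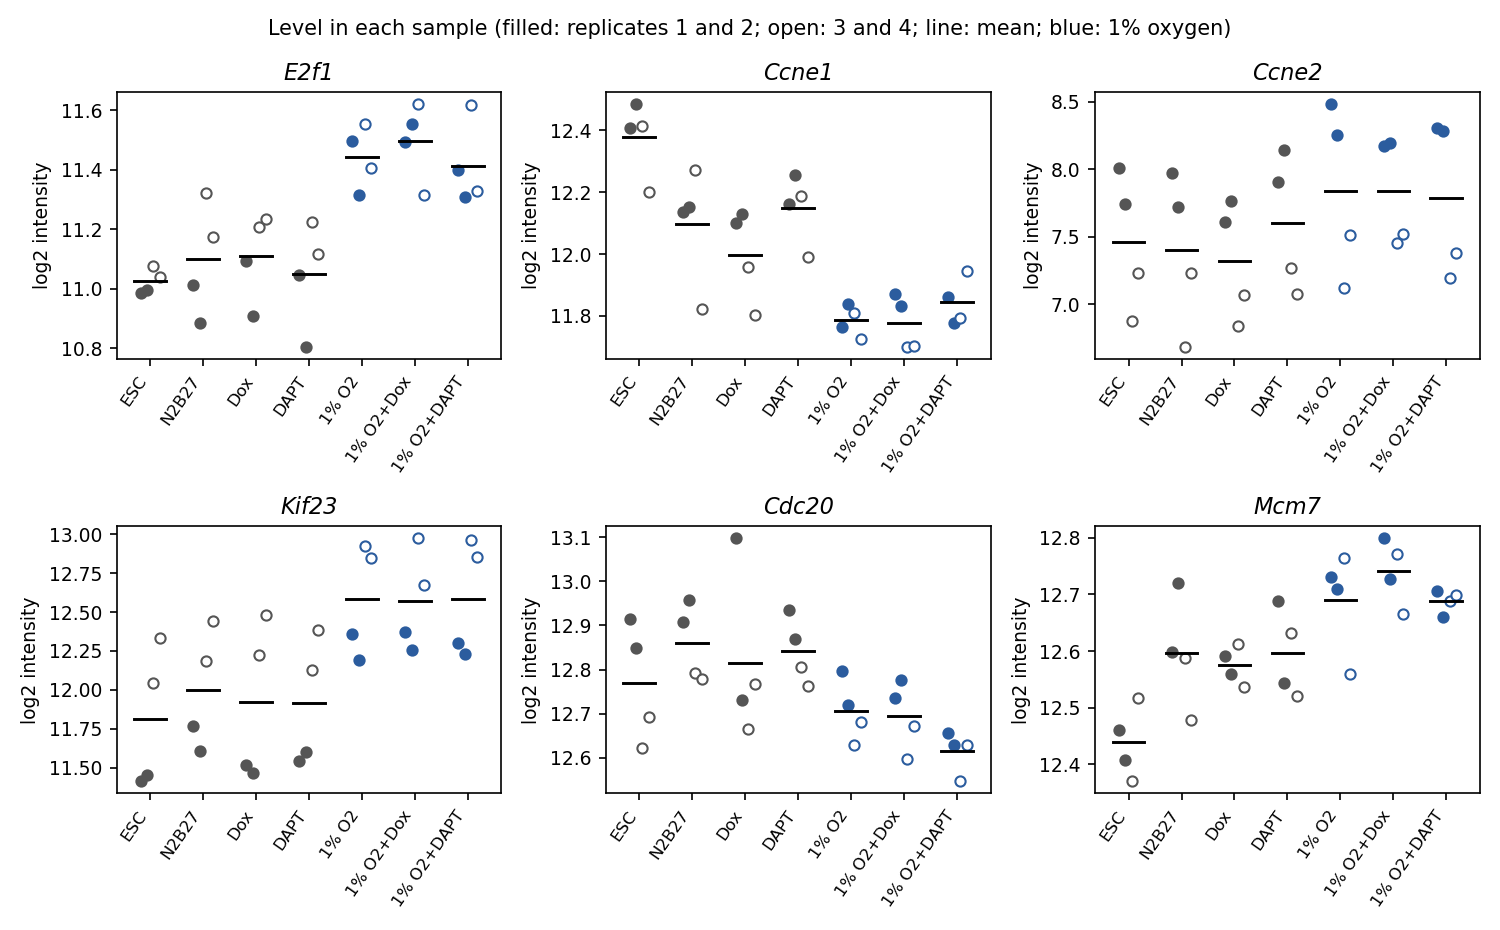
Each point is the log2 intensity of 1 sample for the 6 members E2f1, Ccne1, Ccne2, Kif23, Cdc20 and Mcm7, by group. Filled points are replicates 1 and 2, open points replicates 3 and 4, blue points samples under 1% oxygen, and bars group means. The points of Kif23 split by replicate set in every group and lie higher under 1% oxygen within each set, and the mean of Ccne1 is highest in ESC and lower in the 3 groups under 1% oxygen than in the others.

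The oxygen effect was also measured separately in N2B27, in doxycycline-treated cells and in DAPT-treated cells, each against its own control. In N2B27, 1% oxygen called no member without the block (4.12% of all genes). An unadjusted p under 0.05 was found for 3 members, against 1353 of all 9809 genes. With the block it called 4 (20% of all genes). Of these Ccne2, E2f1 and Kif23 rose, against 9.17% of all genes, and Ccne1 fell, against 10.8%.

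In doxycycline-treated cells E2f1 alone was called without the block, against 4.07% of all genes and 2.65% called higher. It measured 11.09, 10.91, 11.21 and 11.23 in Dox replicates 1 to 4 and 11.49, 11.55, 11.62 and 11.32 in 1% O2+Dox, without overlap (4.04% of all genes upward), and rose by 0.39 ± 0.10 (adjusted p = 0.0324). With the block 6 members were called, against 19.5% of all genes. Mcm7, Ccne2, E2f1, Cdk1 and Kif23 rose, against 9.12%, and Ccne1 fell, against 10.4%. The groups of Mcm7 did not overlap either: it measured 12.59, 12.56, 12.61 and 12.54 in Dox and 12.80, 12.73, 12.77 and 12.67 in 1% O2+Dox.

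In DAPT-treated cells E2f1 alone was called without the block, against 4.04% of all genes and 2.69% called higher. It measured 11.05, 10.80, 11.22 and 11.12 in DAPT and 11.40, 11.31, 11.62 and 11.33 in 1% O2+DAPT, without overlap (3.84% of all genes upward), and rose by 0.36 ± 0.10 (adjusted p = 0.0464). With the block 5 members were called, against 21% of all genes. E2f1, Kif23 and Top2a rose, against 9.38%, and Ccne1 and Cdc20 fell, against 11.6%. The groups of both falling genes did not overlap, as 3.78% of all genes did downward. Ccne1 measured 12.16, 12.26, 12.19 and 11.99 in DAPT and 11.86, 11.78, 11.79 and 11.94 in 1% O2+DAPT. Cdc20 measured 12.93, 12.87, 12.81 and 12.76 in DAPT and 12.66, 12.63, 12.55 and 12.63 in 1% O2+DAPT.

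Without the block the adjusted p of E2f1 lay close to the threshold, and its difference stayed of like size when 1 sample was left out. In doxycycline-treated cells it was 0.32 to 0.45 over 8 omissions, and the call was lost in 5 of them, without Dox replicate 1 or 2 or 1% O2+Dox replicate 1, 2 or 3. In DAPT-treated cells it was 0.28 to 0.42, and the call was lost in 6 of 8, without DAPT replicate 1, 2 or 4 or 1% O2+DAPT replicate 1, 2 or 3. With the block, E2f1 and Kif23 were called in 8 of 8 omissions in each background.

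With the block E2f1, Kif23 and Ccne1 were called in 3 of 3 backgrounds. Kif23 differed by 0.58, 0.65 and 0.67 in N2B27, doxycycline and DAPT, E2f1 by 0.34, 0.39 and 0.36, and Ccne1 by -0.31, -0.22 and -0.31. Ccne2 was called in 2, at 0.44 in N2B27 and 0.52 with doxycycline, and had a difference of 0.19 with DAPT that was not called (adjusted p = 0.197 with the block). The test of the DAPT effect on that difference gave -0.25 and was not called, as no member was. With the block the calls of Ccne1 in doxycycline-treated cells held in 4 of 8 omissions, those of Mcm7 there in 2 and those of Top2a with DAPT in 2.

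Genes of the same processes outside the 42 were counted as well. The lists held 47 other replication genes (40 tested), 49 other mitosis genes (39 tested) and 31 regulators of G1 (27 tested). For N2B27 against ESC, without the block, no other replication gene was called, 1 mitosis gene rose and 2 G1 regulators rose, against 1.22% of all genes in this direction. They were Incenp, a partner of Aurkb and Birc5, at 0.35 ± 0.09 (adjusted p = 0.0334), Rbl1, a pocket protein that holds E2F factors, at 0.66 ± 0.09 (adjusted p = 0.000132), and E2f6, a repressor of the family, at 0.50 ± 0.12 (adjusted p = 0.0193). With the block 13 of 40 replication genes rose and none fell, 8 of 39 mitosis genes rose and 1 fell, and 5 of 27 G1 regulators rose and 2 fell, against 8.37% of all genes higher and 7.69% lower. The medians were 0.090, 0.127 and 0.070. All genes had a median of 0.009.

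Under 1% oxygen, averaged over the 3 backgrounds and without the block, 1 of 40 other replication genes rose and 3 fell, 1 of 39 mitosis genes rose and 1 fell, and 2 of 27 G1 regulators rose and 1 fell. Of all genes 7.76% rose and 9.83% fell, so these shares are all under those over all genes. The change that stood farthest out was Ccng2, an atypical cyclin linked to cell cycle arrest, which rose by 2.33 ± 0.28 (adjusted p = 8.68e-07) and by 2.19, 2.39 and 2.40 in N2B27, doxycycline and DAPT. Cdk2, the kinase that cyclin E activates, fell by 0.24 (adjusted p = 0.00595). Orc5, of the origin recognition complex, fell by 0.29 (adjusted p = 0.00146), Chaf1b, of the chromatin assembly factor, by 0.24 (adjusted p = 0.00185), and Rpa1, which coats single-stranded DNA, by 0.18 (adjusted p = 0.00398). Cdca5, which holds sister chromatids together, fell by 0.22 (adjusted p = 0.000283). With the block 3 of 40 replication genes rose and 8 fell, 11 of 39 mitosis genes rose and 5 fell, and 5 of 27 G1 regulators rose and 7 fell, against 17% of all genes higher and 24.5% lower. The medians of the lists were -0.030, 0.045 and -0.049, against -0.022 for all genes.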

How the data were processed

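Total RNA of 28 samples was measured on 30 one-colour arrays. Dox replicates 3 and 4 have a repeat array each, averaged with the first. Per the file headers the deposited intensities had no normalization across arrays; their scale is linear. The submitters' processing notes name BeadStudio, with no version. Between 27.2% and 29.9% of values per array were negative, so a background had been subtracted. Array mean signal ran from 645 to 862. An array has no read depth, and precision is limited by how many arrays there are. The authors' processed intensities, a second deposited table with a floor and median of 50, served as an alternative.

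Background was modelled with normexp (offset 0), values were taken to log2 and quantile normalized (limma 3.58.1, R 4.3.3). Of 24611 probes, 20983 had 1 gene symbol, 1 several and 3627 none. Named probes above their array's median on at least 4 of 28 samples were kept (12259 probes), and a gene was represented by its passing probe of highest mean (9809 genes). Of the members, 13 genes had more than 1 passing probe. Samples entered 1 model with a mean per group (21 residual degrees of freedom; 18 with the replicate block), two-sided, with Benjamini-Hochberg adjustment over all genes in each comparison. Comparisons with N2B27, or with 1% O2, share that control. The background limit, the 98th percentile of an array's negative values mirrored around 0 (29.3 to 41.6), was chosen after seeing the data; 47.7% to 49.9% of probes lay above it.

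Same-numbered samples pair: deviations from group means correlated at 0.704 to 0.836 over 84 pairs of samples with the same number, 0.476 to 0.719 over 84 with the other number of the same set, and -0.772 to -0.598 over 168 across sets. The deviations of a group sum to 0, so positive correlations within sets force negative ones across sets. The first principal component (51.5%) split replicates 1 and 2 from 3 and 4. The members and lists were chosen with earlier results of these data known. All members could be named, and of other lists up to 6 called genes per comparison, by adjusted p. The procedure was tested on simulated data.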

Additional observations from a re-analysis of the deposited data

Results flagged for a closer look

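Of 224 groups of 4 values (32 members in 7 groups), 2 held a sample far from the others. Chance flags about 1 in 20 groups drawn from 1 normal distribution. That rate need not hold here, because each group mixes sets of replicates that differ. Top2a measured 11.36 in DAPT replicate 3 and 11.74 to 11.76 in the other DAPT samples. Aurkb measured 10.67 in 1% O2 replicate 2 and 10.54 to 10.56 in the others of that group.

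For Plk1 the doxycycline effect had opposite signs at the 2 oxygen levels. It was -0.048 at ambient oxygen, lower in 4 of 4 pairs, and 0.08 under 1% oxygen, higher in 4 of 4 pairs. The test of the difference gave 0.13 ± 0.15 (adjusted p = 1, limma), and with the replicate block an SE of 0.070 and an unadjusted p of 0.0804.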

How the results depend on the processing

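No difference of a member that was called with or without the block changed sign under the alternatives run on it. The replicate block and every probe as its own feature could not show such a change. Both left the estimate of a gene's passing probe of highest mean as it was. For N2B27 minus ESC other passing probes gave -0.06 for Rrm2, 0.13 and -0.30 for Mcm6, and 0.09 and -0.08 for Cdc25c, so the sign there depends on the probe. The phase difference kept its sign only for N2B27 minus ESC, and in the other comparisons it lay near 0 and took both signs over the alternatives. For N2B27 minus ESC, where no member was called, 12 were called with the replicate block, 1 with an offset of 50, 2 with the strict filter (above the array median on every sample), 2 with the authors' processed values, 12 with those and the block, and 5 with median scaling and the block (4 higher, 1 lower, against 11 and 1). Its phase difference of 0.135 was 0.092 with no filter, 0.097 in replicates 3 and 4, and 0.020 to 0.148 over omissions of a sample. With the block, omissions gave 6 to 11 calls and 0.082 to 0.150.

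For the averaged oxygen effect (5 called) the counts were 12 with the block, 3 with the mean over probes, 1 in replicates 3 and 4, 14 with the authors' values and the block, and 11 with median scaling and the block, of which 3 were higher and 8 lower, against 9 and 3 with quantile normalization. Median scaling without the block gave 2 higher and 3 lower, against 3 and 2. Omissions gave 4 to 6 calls and phase differences of -0.027 to 0.040.

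For 1% O2 minus N2B27 (0 called) the count was 4 with the block, 6 with median scaling or the authors' values and the block, and 1 with an offset of 50, median scaling, the strict filter, the authors' values or replicates 1 and 2, with 0 to 1 over omissions. Its phase difference of 0.012 was -0.036 with the mean over probes, -0.040 in replicates 1 and 2 and 0.057 in replicates 3 and 4. For 1% O2+Dox minus Dox (1 called) it was 6 with the block, 5 with median scaling and the block, 8 with the authors' values and the block, 2 in replicates 1 and 2, and 0 with median scaling, the authors' values, no filter or replicates 3 and 4, and 0 to 1 over omissions. For 1% O2+DAPT minus DAPT (1 called) it was 5 with the block, 7 and 6 with median scaling or the authors' values and the block, 2 with median scaling, the strict filter or replicates 1 and 2, 0 with no filter, every probe, the mean over probes or replicates 3 and 4, and 0 to 2 over omissions. Median scaling moved the median of all genes there from -0.021 to -0.121.

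Other phase differences that moved were, in replicates 1 and 2, -0.062 for 1% O2+DAPT minus DAPT, 0.069 for 1% O2+DAPT minus 1% O2, 0.043 for 1% O2+Dox minus 1% O2, 0.016 for Dox minus N2B27 and 0.103 for the DAPT and oxygen interaction. In replicates 3 and 4 it was -0.062 for 1% O2+Dox minus 1% O2, and with the mean over probes -0.036 for 1% O2+DAPT minus 1% O2. Over omissions they ran from -0.082 to 0.016 (1% O2), -0.028 to 0.077 (1% O2+DAPT minus 1% O2), -0.054 to 0.008 (1% O2+DAPT minus DAPT), -0.029 to 0.077 (1% O2+Dox minus 1% O2), -0.020 to 0.061 (1% O2+Dox minus Dox), -0.044 to 0.073 (DAPT), -0.018 to 0.022 (Dox), -0.050 to 0.093 (DAPT interaction) and -0.055 to 0.100 (Dox interaction). The cause of these moves was not tested. Results on single genes were followed only where the gene was called with or without the block. Apart from omissions, 384 kept their side of the threshold, 101 passed it only under the alternative and 22 lost it. Of the 101, 32 came from the replicate block and were fixed by that choice. A further 31 came from the authors' values with the block and 17 from median scaling with the block. For the doxycycline, DAPT and interaction comparisons the replicate block changed no call of a member. Median scaling with the block, the authors' values with the block and omissions with the block were chosen after seeing the data. The median SE of a member, 0.13 without the block and 0.068 with it, sets the size these arrays can show.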
